A study of Mus musculus with 42 samples.

Results

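The BMP target genes followed here were the 10 genes Id1, Id2, Id3, Id4, Smad6, Smad7, Bambi, Atoh8, Msx1 and Msx2, taken by name from 12 tables of normalized counts that list 19232 gene names in all. Id1 to Id4, Smad6, Smad7, Bambi and Atoh8 had a row in every table. Msx1 had a row only in the 4 stromal tables and in both 72 h organoid tables, and Msx2 had no row in any table, so no value is given for it. The members with a row therefore numbered 9 in each stromal table, 8 in each goblet table and each 12 h organoid table, and 9 in each 72 h organoid table.

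Bone morphogenetic proteins (BMPs) are secreted ligands that bind type I receptors such as ALK3 (gene Bmpr1a) together with type II receptors. The activated receptor phosphorylates Smad1, Smad5 and Smad8/9, which enter the nucleus with Smad4 and raise transcription of a set of target genes. Id1 to Id4 encode proteins that bind E proteins and keep them from DNA, Smad6 and Smad7 encode inhibitory Smads, Bambi encodes a pseudoreceptor that dampens the signal, and Atoh8, Msx1 and Msx2 encode transcription factors. In the colon, BMP ligands and their antagonists come largely from the stroma and act on both stroma and epithelium.

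Stromal cells sorted for tdTomato were compared between 3 genotypes, all carrying Gli1-CreERT2, a tamoxifen-inducible Cre expressed from Gli1. GS4T mice carry loxP-flanked Smad4, GA3T mice carry loxP-flanked Alk3 (Bmpr1a), and GWTT mice are controls with both genes intact. Muc2-mCherry goblet cells came from GS4M2, GA3M2 and GWTM2 mice. These have the same 3 genotypes and a Muc2-mCherry reporter in place of tdTomato. By this design Cre acts in the stroma and the goblet cells are meant to keep both genes. All mice, controls included, received 100 μl of tamoxifen at 20 mg/ml on 5 days and were sampled at day 30 (the labels give a subcutaneous route and the methods an intraperitoneal one), and proximal and distal colon gave 2 libraries per genotype and cell type. Colonic organoids from wild-type mice were cultured with EGF, R-spondin1, Wnt3a, CHIR and Noggin, a secreted BMP antagonist that was present in every organoid group, and received 10 nM IL-1α plus IL-1β, 10 nM IL-17A or neither for 12 h or 72 h, with 3 libraries per group. The mice were adults of both sexes, and how many mice a library holds is not stated, so the p-values measure the spread between libraries, which may be technical.

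Before the results, several facts about the libraries are needed. The depth was 14222902 to 23686940 reads on named genes over the 42 libraries. The control libraries of a segment or time serve both tables made with them, so GS4T and GA3T changes share controls, as do GS4M2 and GA3M2 changes and the changes under both cytokines. At least 99.97% of genes had equal reads in both copies. Untreated organoids also shared libraries between times, since libraries 2 and 4 at 12 h held the same reads as libraries 1 and 4 at 72 h (99.986% of 14249 genes equal). Pairs of libraries 3 and 4 of IL-1 at 12 h, 3 and 4 of IL-17A at 12 h, and 2 and 4 of the 72 h controls differed by a chi-square of 3.02 to 3.33 per degree of freedom, against at least 25.7 for other pairs within organoid groups. Across groups, control library 4 at 12 h and control library 2 at 72 h differed by 3.45, and the first libraries of IL-1 and IL-17A at 12 h by 4.60. The 72 h controls differed by 14.35 to 81.5 from the 12 h cytokine libraries and by 87.2 to 348 from the 72 h ones. Changes at 72 h against these controls therefore cannot be told apart from culture time. Reads of Xist and of up to 4 Y-linked genes gave a sex to each library. Only 2 or 3 of the Y-linked genes were listed for the 72 h libraries and 0 for the distal GS4T libraries, whose sex rests on Xist alone. All GS4T libraries and both distal GWTT libraries were female, whereas proximal GWTT and both GA3T groups held 1 male and 1 female library each. All GS4M2 and GA3M2 libraries were male, against 1 male and 1 female GWTM2 library per segment. At 72 h, 3 of 3 IL-17A and 2 of 3 IL-1 libraries were male, against 1 of 3 controls. In the proximal GS4M2 table the deposited column names are used, and the study's own listing of that comparison names its groups the other way round. Under those names each proximal GS4M2 change against GWTM2 given here would change sign. The proximal GA3M2 changes and the direct goblet comparisons use the same libraries, so they would be affected too. The 2 libraries named GWTM2 in that table held the same reads as those named GWTM2 in the proximal GA3M2 table in 100% of 13686 genes.

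The knockouts were checked first. In stromal cells Smad4 fell from 1638 ± 49.2 to 770.4 ± 91.8 normalized counts in proximal GS4T cells (SD, n = 2 each; log2 fold change −1.09, adjusted p = 0.010). In distal GS4T cells Smad4 fell from 1742 ± 55.1 to 925.5 ± 347 (SD, n = 2 each; −0.96, adjusted p = 0.042). Bmpr1a was 3090 ± 184 in proximal GWTT and 2038 ± 277 in proximal GA3T cells (SD, n = 2 each; −0.61, adjusted p = 0.12), and 3422 ± 88.8 and 2123 ± 113 in distal cells (−0.69, adjusted p = 0.10). Each of these genes was thus lower in both libraries of its own knockout, with a substantial part of its reads remaining. Gli1, which drives the Cre and the sort, stood at 23.9 in the second proximal GS4T library and at 34.7 in the second proximal GA3T library, against 1481 and 1292 in the first ones.

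Promoter sequence from RefSeq (GRCm38.p6) was available for 7 of the 10 members, and 3 are shown because these genes went different ways in the stroma: Id4 had the largest fall, Smad6 rose in the proximal colon, and Atoh8 differed most between the knockouts. Each sequence is the 250 bases before the RefSeq start, 5′ to 3′ on the strand of the gene, and capitals mark GGCGCC, the letters of a GC-rich Smad1/5-binding element.
Id4, chr13:48260866-48261115, plus strand: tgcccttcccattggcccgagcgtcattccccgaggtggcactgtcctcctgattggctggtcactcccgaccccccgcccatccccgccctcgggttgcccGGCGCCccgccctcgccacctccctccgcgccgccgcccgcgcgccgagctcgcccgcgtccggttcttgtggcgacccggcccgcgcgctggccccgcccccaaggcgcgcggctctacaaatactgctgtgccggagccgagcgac
Smad6, chr9:64022060-64022309, minus strand: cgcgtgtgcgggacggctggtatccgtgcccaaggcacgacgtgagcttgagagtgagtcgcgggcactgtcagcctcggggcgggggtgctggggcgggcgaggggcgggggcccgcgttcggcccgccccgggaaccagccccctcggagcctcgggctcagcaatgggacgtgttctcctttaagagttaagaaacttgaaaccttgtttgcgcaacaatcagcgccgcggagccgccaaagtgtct
Atoh8, chr6:72235578-72235827, minus strand: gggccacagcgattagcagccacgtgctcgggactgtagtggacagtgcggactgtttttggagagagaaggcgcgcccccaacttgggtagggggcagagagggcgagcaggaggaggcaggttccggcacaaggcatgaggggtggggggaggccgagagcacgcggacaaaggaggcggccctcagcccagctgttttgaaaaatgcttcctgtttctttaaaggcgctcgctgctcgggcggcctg
GGCGCC, which reads the same on both strands, occurred once in the window of Id4 and once in that of Id2, and not in those of Id3, Smad6, Atoh8, Msx1 or Msx2. It occurred in 9.59% of 32851 promoter windows of this length. CAGAC, searched on both strands as the letters of a Smad4-bound element, occurred 2 times in the window of Id3 and not in those of the other 6 genes, and in 42.2% of all windows. By GENCODE M21 the windows of Id3 and Msx2 lie wholly in exons of those genes (250 of 250 bases) and that of Id2 lies inside the gene, with 161 bases in exons, so for these 3 genes the letters are within the gene as annotated there. These matches describe letters in a window and not binding.

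On GRCm38 (mm10) with GENCODE M21, Id1 lies at chr2:152736251-152737410 on the plus strand, Id2 at chr12:25093799-25097140 on the minus strand, Id3 at chr4:136143497-136145755 on the plus strand and Id4 at chr13:48261228-48266026 on the plus strand. Smad6 lies at chr9:63953076-64022059 on the minus strand, and Smad7 at chr18:75367529-75395935 and Bambi at chr18:3507923-3516404 both lie on the plus strand. Atoh8 at chr6:72206177-72235577, Msx1 at chr5:37820485-37824583 and Msx2 at chr13:53466884-53473074 lie on the minus strand. The values are counts over exons of the whole gene. Of the 10 genes only Id4 has exons that overlap those of antisense genes, over 253 bases (6.57% of its exon bases), and the strand setting of the counting is not given in the sources used here.

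The members differed widely in level, and their order differed between cell types. Levels were set as RPKM, reads scaled to the library total on named genes and to exon length, which allows genes to be compared. In stromal cells Id3 was the highest member, with 57.3 to 194 RPKM over 12 libraries (median 86.7). Id2 followed with 13.0 to 48.4 (median 18.6), and Id1 with 9.70 to 42.4 (median 15.7). Smad6 had 7.54 to 17.6, Smad7 8.41 to 12.5, Atoh8 1.89 to 15.6, Bambi 1.18 to 6.11 and Id4 0.519 to 6.32, and Msx1 was lowest at 0.163 to 0.908. These ranges take in knockout libraries. In the 4 GWTT libraries alone Id2 (33.7 to 48.4 RPKM) lay above Smad6 (7.54 to 17.6) and Smad7 (9.24 to 12.5), which overlapped each other. There Id1 (16.0 to 42.4) overlapped Id2 and Smad6, and Atoh8 (3.54 to 7.94) overlapped Smad6, Bambi (3.87 to 6.11) and Id4 (4.49 to 6.32).

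In goblet cells Id1 was the highest member, with 45.4 to 245 RPKM over 12 libraries (median 86.2). Id3 was next with 5.31 to 47.5 (median 31.1), and the ranges of both overlapped slightly. Smad7 at 7.11 to 16.6, Id4 at 4.60 to 11.7, Smad6 at 2.65 to 9.79 and Id2 at 1.77 to 11.7 overlapped each other. Bambi (1.52 to 4.46) and Atoh8 (0.561 to 2.21) were the lowest. In organoids Id1 again led, with 27.1 to 115 RPKM over 18 libraries (median 41.0), above every other member in range. Id2 (3.77 to 10.1), Smad7 (2.83 to 8.64) and Id3 (2.72 to 11.2) overlapped one another. Bambi, Id4, Smad6 and Atoh8 had medians of 1.35, 0.970, 0.951 and 0.482 RPKM, and Msx1 held 0 to 5 reads per library.

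**Figure D1:**
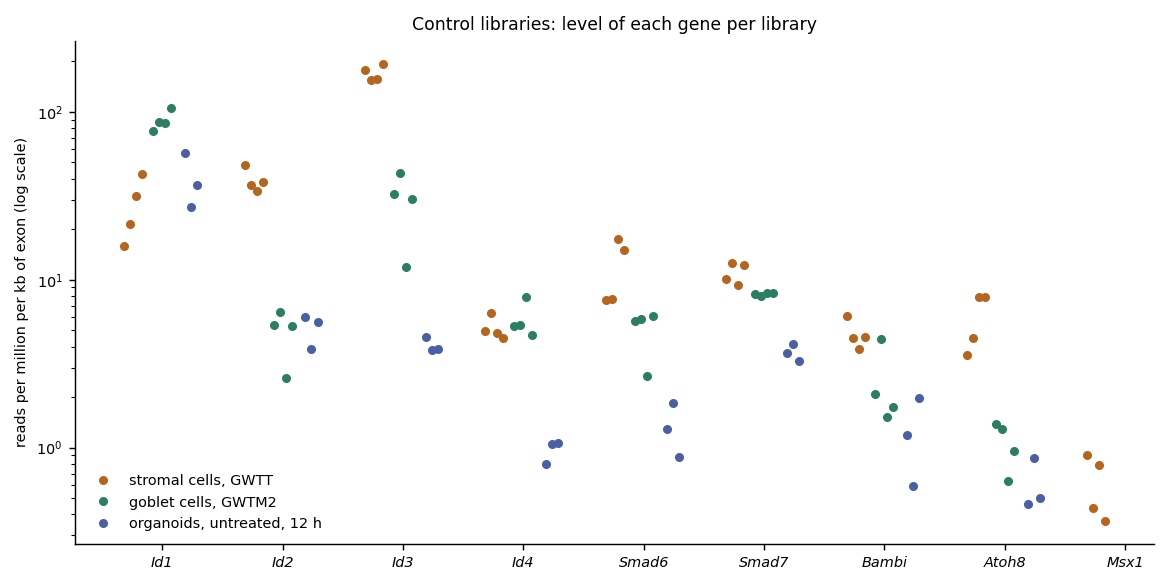
Level of each BMP target gene in the control libraries, in RPKM on a log axis, with 1 point per library for GWTT stromal cells (n = 4), GWTM2 goblet cells (n = 4) and untreated organoids at 12 h (n = 3). Id3 was highest in stromal cells and Id1 in goblet cells and organoids, and Msx1 had values in stromal cells alone among these groups.

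In the stroma of Smad4 knockouts Id2, Id3, Id4 and Bambi fell in both segments. Id4 had the largest change, to 58.1 from 362 normalized counts in the proximal colon and to 40.5 from 293 in the distal colon. Id1 fell in the distal colon, and Smad6 rose in the proximal colon. Of the 9 members tested, 5 were called in the proximal colon (4 lower, 1 higher) and 5 in the distal colon (5 lower). Of all genes tested 15.6% (2384 of 15319) and 23.2% (3543 of 15262) were called in these comparisons, where called means an adjusted p under 0.05 from limma on log2(normalized count + 1). The median log2 fold change was −0.89 over the 9 members and 0.02 over all genes in the proximal colon, and −1.06 and 0.00 in the distal colon.

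Id4, an Id protein gene with low levels in the stroma, had 320.5 and 403.7 normalized counts in proximal GWTT cells and 41.5 and 74.8 in GS4T cells. The groups were far apart, and the log2 fold change was −2.67 ± 0.35 (SE, adjusted p = 0.014). Its distal values were 306.1 and 280.7 in GWTT cells and 32.8 and 48.1 in GS4T cells (−2.85 ± 0.30 SE, adjusted p = 0.0035). In both segments every knockout library of Id4 lay far below every control library.

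Id2 had 1993 and 1487 normalized counts in proximal GWTT cells and 611.4 and 547.2 in GS4T cells. This was a log2 fold change of −1.57 ± 0.17 (SE, adjusted p = 0.0093). Distal GWTT cells held 1348 and 1507 and distal GS4T cells 815.8 and 571.9 (−1.06 ± 0.19 SE, adjusted p = 0.015). The control and knockout libraries did not overlap in either segment, as was so for 65.4% of all genes tested in the proximal and 67.5% in the distal comparison. Id3, the most abundant member in the stroma, had 5393 and 4604 counts in proximal GWTT and 2414 and 2755 in GS4T cells (−0.95 ± 0.13 SE, adjusted p = 0.015). The distal libraries had 4643 and 5646 against 2326 and 2493 (−1.09 ± 0.13 SE, adjusted p = 0.0049). Each pair of knockout libraries lay close together and below both controls.

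Id1 behaved less evenly. Proximal GWTT cells held 313.3 and 414.0 normalized counts and GS4T cells 217.6 and 295.0, which did not overlap but did not pass the test (−0.51 ± 0.24 SE, adjusted p = 0.20). Distal GWTT cells held 600.4 and 798.6 and GS4T cells 205.5 and 298.3, a fall of 1.48 on the log2 scale (SE 0.24, adjusted p = 0.011). The knockout libraries of both segments held similar counts, and it was the distal control libraries that stood higher.

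The inhibitory Smads did not follow the Id genes. Smad6 had 408.4 and 406.8 normalized counts in proximal GWTT and 729.5 and 621.0 in GS4T cells, a rise of 0.72 (SE 0.14, adjusted p = 0.030). The distal libraries had 925.1 and 787.0 against 644.8 and 749.2 (−0.30 ± 0.15 SE, adjusted p = 0.20). Smad7 had 775.5 and 938.6 against 618.8 and 670.8 in the proximal colon (−0.40 ± 0.14 SE, adjusted p = 0.11), and 685.5 and 899.3 against 748.5 and 776.2 in the distal colon (−0.04 ± 0.16 SE, adjusted p = 0.87).

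Bambi, the pseudoreceptor gene, had 524.2 and 380.2 normalized counts in proximal GWTT cells and 128.2 and 180.4 in GS4T cells (−1.55 ± 0.26 SE, adjusted p = 0.024). Distal GWTT cells held 321.7 and 375.6 and GS4T cells 98.3 and 169.1 (−1.42 ± 0.30 SE, adjusted p = 0.024). All 4 knockout libraries were below all 4 controls. Atoh8 went the other way without passing the test, with 149.9 and 187.5 against 372.6 and 238.2 in the proximal colon (0.83 ± 0.28 SE, adjusted p = 0.11). Distal libraries had 322.7 and 323.3 against 292.3 and 651.7, so 1 knockout library lay below and 1 above the controls (0.43 ± 0.37 SE, adjusted p = 0.43). Msx1 was low, at 47.6 and 22.5 against 16.6 and 17.9 in the proximal colon (−0.89 ± 0.56 SE, adjusted p = 0.32) and 40.1 and 18.4 against 27.5 and 27.0 in the distal colon (0.00 ± 0.55 SE, adjusted p = 1.0).

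**Figure D2:**
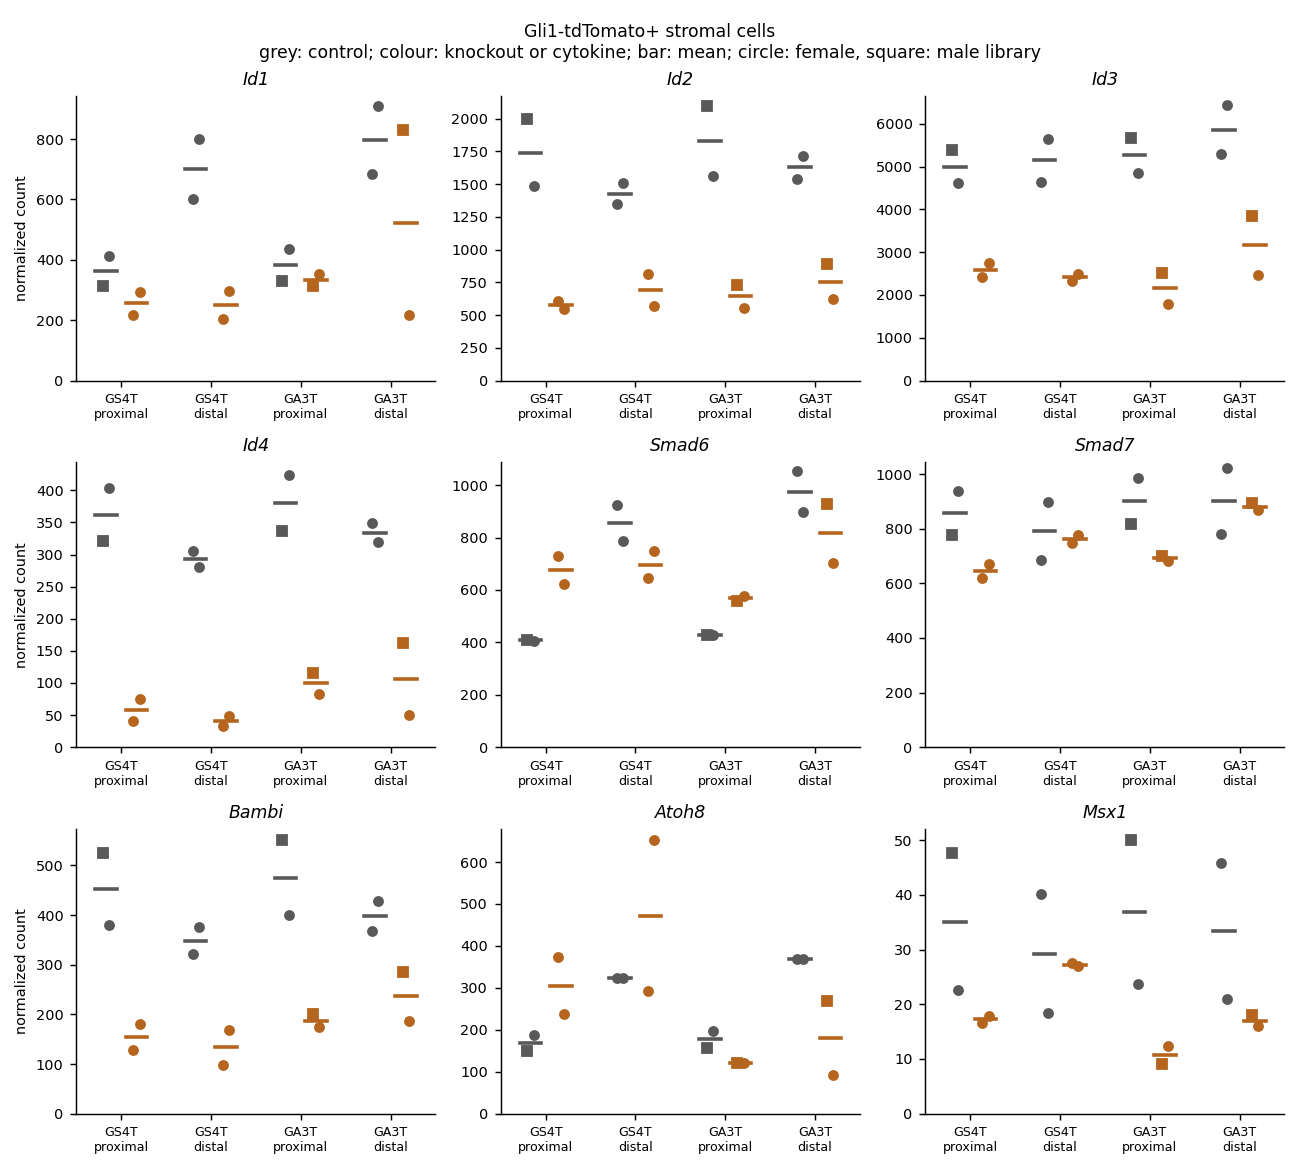
Normalized counts of the 9 members with a row in stromal cells, 1 point per library (n = 2 per group, circles female, squares male, bars means) for GS4T and GA3T cells in colour beside GWTT control cells in grey in each segment. Id2, Id3, Id4 and Bambi lay below their controls in every knockout group, while Smad6 lay above its controls in both proximal knockouts.

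The proximal calls depended on single libraries. With library sex as a covariate, an alternative chosen after seeing the data, Smad6 was not called (0.72, adjusted p = 0.054). With either proximal GS4T library left out, the second of which had almost no Gli1 reads, 0 of 9 members were called by limma. Without the second library Id4 stood at −3.09 (adjusted p = 0.056), Id2 at −1.49, Id3 at −1.05, Bambi at −1.79 and Smad6 at 0.84. Without the first one they stood at −2.25, −1.65, −0.85, −1.30 and 0.61, with adjusted p of 0.094 to 0.17. Without the first proximal GWTT library 3 members were called. In the distal colon 3 and 2 members were called without the first and the second GWTT library, among them Id3 and Id4 each time. Atoh8 in the distal colon was −0.14 without the second GS4T library and 1.01 without the first.

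Markers of other cell types moved with the Smad4 knockout, and their part in these results was not tested. The epithelial markers Epcam, Cdh1, Krt8, Krt18, Krt20 and Vil1 (6 of 6 listed) summed to 187 to 6953 normalized counts in proximal GWTT and 17150 to 21860 in GS4T libraries, and to 783 to 2347 and 9324 to 18650 in distal ones. All 8 goblet markers were listed and summed to 79.6 to 6311 against 7233 to 16640 in the proximal colon, with Tff3, Zg16 and Spink4 at 0 in the first GWTT library, and to 2280 to 4674 against 4693 to 13970 in the distal colon. Macrophage markers (6 of 6) summed to 2561 to 3800 against 13110 to 21740 in proximal and 7440 to 9690 against 15310 to 28360 in distal libraries. Neutrophil markers (4 of 4) rose in sum from 31.0 to 55.3 up to 565 to 853 in proximal and from 44.5 to 80.2 up to 2152 to 2473 in distal libraries, with Cxcr2 at 0 in 3 of the 4 GWTT libraries. Markers of T, B and plasma cells (4 of 4) were lower, at 26140 to 45520 against 6834 to 13890 and at 56040 to 76860 against 1788 to 7313, with Ms4a1 at 0 in the first distal GS4T library. Fibroblast markers (8 of 8) summed to 708000 to 799100 against 746800 to 970800 in proximal and 679900 to 842200 against 893100 to 936300 in distal libraries. Endothelial markers (6 of 6) summed to 329.9 to 365 against 628 to 1320 in proximal libraries, where Smad6 rose, and to 665 to 768.6 against 472.1 to 2178 in distal ones. Smooth muscle markers (5 of 5) summed to 2771 to 4472 against 6226 to 7048 and to 9283 to 9667 against 5782 to 9298, and pericyte markers (3 of 3) to 2268 to 2495 against 2414 to 4567 and to 2351 to 2359 against 4422 to 6286. In sorted bulk samples fewer cells of a type and less RNA per cell cannot be told apart.

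Deleting Alk3 gave lower values of the same genes, but 0 of 9 members were called by limma in either segment. Of all genes tested 0.358% (55 of 15346) were called in the proximal colon and 0% (0 of 15414) in the distal colon. At an unadjusted p under 0.05, 7 of 9 members passed in proximal and 4 in distal cells, against 21.6% and 18.7% of all genes. edgeR called 0 members in each segment, and DESeq2 called 4 in the proximal colon (Id2, Id3, Id4, Bambi) and 3 in the distal colon (Id2, Id3, Id4), all lower. The median log2 fold change of the 9 members was −1.30 in proximal and −0.89 in distal cells, against 0.01 over all genes in each.

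Id4 had 337.2 and 424.5 normalized counts in proximal GWTT and 116.2 and 82.7 in GA3T cells, a log2 fold change of −1.94 ± 0.27 (SE, adjusted p = 0.070). Id2 had 2097 and 1563 against 731.5 and 556.3 (−1.50 ± 0.21 SE, adjusted p = 0.073), and Id3 had 5674 and 4841 against 2509 and 1801 (−1.30 ± 0.20 SE, adjusted p = 0.073). Bambi had 551.5 and 399.7 against 200.4 and 174.4 (−1.32 ± 0.23 SE, adjusted p = 0.083). For these 4 genes every knockout library lay below both controls, and 56.4% of all genes tested did not overlap. Id1 was nearly level, with 329.6 and 435.3 against 313.6 and 354.6 (−0.18 ± 0.20 SE, adjusted p = 0.63). Smad6 had 429.7 and 427.7 against 559.1 and 576.1 (0.40 ± 0.13 SE, adjusted p = 0.18), and Smad7 815.9 and 986.9 against 700.4 and 681.9 (−0.38 ± 0.14 SE, adjusted p = 0.22). Smad6 was therefore higher and Smad7 lower in each proximal GA3T library than in the controls. Atoh8 had 157.7 and 197.2 against 121.2 and 121.5 (−0.54 ± 0.24 SE, adjusted p = 0.28), and Msx1 had 50.0 and 23.7 against 9.02 and 12.4 (−1.62 ± 0.62 SE, adjusted p = 0.23). Without the first proximal GA3T library, Id3 was −1.54. Without the second, whose Gli1 was near 0, no member was called.

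In the distal colon the GA3T libraries stood apart from each other. Id1 had 685.0 and 908.9 normalized counts in GWTT cells, 829.0 in the first GA3T library, which was male, and 216.9 in the second, which was female (−0.89 ± 0.62 SE, adjusted p = 0.48). The first library thus lay among the controls and the second far below them. The second library was also the lower one for Id4, with 349.2 and 319.5 against 161.6 and 50.0 (−1.88 ± 0.55 SE, adjusted p = 0.19), and for Atoh8, with 368.1 and 368.0 against 268.3 and 91.4 (−1.23 ± 0.50 SE, adjusted p = 0.28). Id2 had 1538 and 1715 against 889.1 and 623.0 (−1.13 ± 0.20 SE, adjusted p = 0.11), Id3 5297 and 6425 against 3855 and 2473 (−0.92 ± 0.24 SE, adjusted p = 0.17), and Bambi 367.0 and 427.4 against 285.6 and 187.1 (−0.77 ± 0.25 SE, adjusted p = 0.22). Those 3 genes, and also Id4 and Atoh8, were lower in both GA3T libraries than in either control. The groups did not overlap for 6 of the 9 members, against 54.3% of all genes. Smad6 (−0.26 ± 0.18 SE), Smad7 (−0.02 ± 0.16 SE) and Msx1 (−0.83 ± 0.59 SE) had adjusted p of 0.48, 0.95 and 0.49. Without the first GA3T library the log2 fold changes were −2.72 for Id4, −1.997 for Atoh8, −1.86 for Id1, −1.38 for Id2 and −1.24 for Id3. Without the second library Id1 was 0.07. A sex covariate gives the same distal fold changes, since the first GA3T library is the only male one there. In the proximal colon, where the first library of each group is male, the covariate is the same as the replicate number as a block. With it limma called Id2 (adjusted p = 0.029) and Id3 (adjusted p = 0.036), among 257 genes.

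Several marker sums moved in the GA3T stroma as well, and their part was not tested. Endothelial markers (6 of 6) summed to 346.9 to 384 in proximal GWTT and 395.8 to 711.7 in GA3T libraries and to 756.8 to 876.8 and 524.1 to 792.1 in distal ones. Epithelial markers (6 of 6) summed to 197 to 7311 in proximal GWTT and 7461 to 11150 in GA3T libraries and to 894 to 2670 and 6678 to 14600 in distal ones. Goblet markers (8 of 8) summed to 83.8 to 6636 against 4345 to 7563 in proximal and 2602 to 5319 against 4726 to 13310 in distal libraries. Fibroblast markers (8 of 8) summed to 744400 to 840700 against 967400 to 1035000 and to 773800 to 960700 against 856000 to 1122000. Macrophage markers (6 of 6) summed to 2695 to 3996 against 11960 to 21350 and to 8467 to 11050 against 11800 to 15810. Neutrophil markers summed to 32.6 to 58.2 against 169 to 559 (4 of 4 listed, Cxcr2 at 0 in the first GWTT library) and to 50.7 to 91.5 against 172 to 223 (3 of 4 listed). Markers of T, B and plasma cells summed to 27500 to 47850 against 15670 to 16070 (3 of 4 listed) and to 63930 to 87460 against 31410 to 36600 (4 of 4 listed). Smooth muscle markers (5 of 5) summed to 2913 to 4705 against 4839 to 6332 and to 10560 to 11030 against 7405 to 9162. Pericyte markers (3 of 3) summed to 2386 to 2623 against 2598 to 3036 and to 2682 to 2685 against 1994 to 2437.

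Whether the knockouts or the segments differed was tested directly, on reads scaled together over the 12 stromal libraries. No member was called by limma or edgeR for a difference between GS4T and GA3T cells, where 0.0986% of all genes were called for proximal and 2.94% for distal cells. In each segment 1 member passed an unadjusted p under 0.05, against 10.5% of all genes in proximal and 20.0% in distal cells. That member was Atoh8, the BMP-responsive bHLH factor, which was higher in GS4T than in GA3T cells by 1.36 (95% interval 0.24 to 2.49, adjusted p = 0.38) in proximal and 1.67 (0.55 to 2.80, adjusted p = 0.10) in distal cells. For Id4 the same difference was −0.73 (−1.88 to 0.42) and −0.96 (−2.11 to 0.19), and for Id2 it was −0.07 (−0.60 to 0.47) and 0.08 (−0.46 to 0.61). The intervals for Id2 thus bound a difference between the knockouts at 0.61 on the log2 scale, while those for Id4 reach −2.11.

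The change under knockout did not differ in a called way between segments for any member, by limma or edgeR. Of all genes 0.046% were called for GS4T and 0.0263% for GA3T. In each, 1 member, Smad6, passed an unadjusted p under 0.05, against 8.79% of all genes for GS4T and 7.33% for GA3T. The Smad6 change was larger in proximal than in distal cells by 1.00 (95% interval 0.50 to 1.50, adjusted p = 0.16) in GS4T and by 0.66 (0.16 to 1.17, adjusted p = 0.50) in GA3T cells. Control cells did differ in Smad6. It was 24.2 and 24.5 RPM (reads scaled to the library total) in proximal GWTT libraries and 48.5 and 56.4 in distal ones (proximal minus distal −1.08, SE 0.16, adjusted p = 0.012). Of all genes 1.86% were called between the segments of GWTT stroma, and Smad6 was the only called member of 9. Id1 and Atoh8 stood at −0.96 each in that comparison (adjusted p = 0.43 and 0.41). The proximal controls held 1 male library and the distal ones none. Endothelial markers summed to 329.9 to 365 normalized counts in proximal and 665 to 768.6 in distal GWTT libraries, in tables normalized separately, and their part in the Smad6 difference was not tested.

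In goblet cells next to the deleted stroma no member was called in any of the 4 comparisons by limma. Of all genes tested the calls were 0.325% (43 of 13246) for proximal and 0% (0 of 13078) for distal GS4M2 cells, and 0.0899% (12 of 13346) for proximal and 0% (0 of 13082) for distal GA3M2 cells. At an unadjusted p under 0.05 the members numbered 2, 4, 0 and 0 of 8 in the same order, against 16.7%, 10.6%, 15.3% and 11.7% of all genes. edgeR called 0 in each, and DESeq2 called 0, 1, 0 and 0. Over all genes DESeq2 called 565, 249, 516 and 353 in the same order. Muc2, which marks the sorted cells, had 43021 and 113478 normalized counts in distal GWTM2 and 238217 and 194631 in distal GS4M2 cells (1.62, adjusted p = 0.43). In proximal cells it had 168657 and 212088 against 401714 and 356310 (1.00, adjusted p = 0.24). In the GA3M2 tables it had 179572 and 224217 against 18753 and 14042 in the proximal colon (−3.63, adjusted p = 0.046) and 41156 and 109532 against 16015 and 12294 in the distal colon (−2.26, adjusted p = 0.31). The 8 goblet markers summed to 560100 to 621400 against 192100 to 247700 in proximal and 608400 to 1103000 against 249500 to 420200 in distal GA3M2 tables. In GS4M2 tables they summed to 526100 to 587800 against 601300 to 676400 in proximal and 635900 to 1143000 against 709600 to 863000 in distal cells. Their part in the member values was not tested.

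In distal GS4M2 cells all 8 members had a higher mean than in GWTM2 cells, with a median log2 fold change of 0.90 over the 8 and 0.00 over all genes. In proximal GS4M2, proximal GA3M2 and distal GA3M2 cells the members' median was −0.02, 0.26 and −0.14. Id1, the highest member in these cells, had 1763 and 2211 normalized counts in GWTM2 and 2975 and 4950 in GS4M2 cells (0.96 ± 0.27 SE, adjusted p = 0.40 by limma and 0.037 by DESeq2). Both GS4M2 libraries lay above both controls. Smad6 had 151.5 and 350.9 against 435.4 and 546.9 (1.08 ± 0.42 SE, adjusted p = 0.47). Smad7 had 670.3 and 678.0 against 866.0 and 1219 (0.61 ± 0.19 SE, adjusted p = 0.44), and Atoh8 28.1 and 43.0 against 81.6 and 96.5 (1.33 ± 0.35 SE, adjusted p = 0.40). Id2 (0.84), Bambi (0.52), Id3 (0.98) and Id4 (0.17) had adjusted p of 0.50, 0.50, 0.52 and 0.87. The groups did not overlap for 6 of the 8 members, and of all genes tested 0% were called and 45.7% did not overlap. The first distal GWTM2 library was female and the lower one for 7 of the 8 members. Without the second, male one, Id3 was 1.66 and Smad6 was 1.68.

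In proximal GS4M2 cells the knockout libraries spread widely, with Id1 at 866.1 and 1767 normalized counts against 1510 and 1722 in GWTM2 cells (−0.38 ± 0.31 SE, adjusted p = 0.58). Id3 was 358.4 and 1066 against 982.0 and 1326 (−0.88 ± 0.48 SE, adjusted p = 0.41). Id4 was 738.9 and 474.3 against 349.3 and 354.1 (0.75 ± 0.22 SE, adjusted p = 0.19), and Smad7 was 784.1 and 1268 against 634.3 and 621.7 (0.67 ± 0.22 SE, adjusted p = 0.23). Of the 8 members Id4 and Smad7 did not overlap between the groups, against 50.2% of all genes. The other 4 members lay between −0.40 and 0.36. Id1 was 0.13 without the first GS4M2 library.

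In GA3M2 cells Id1 was 1604 and 2804 normalized counts against 1608 and 1820 in the proximal colon (0.31 ± 0.28 SE, adjusted p = 0.60), and 1331 and 1555 against 1687 and 2134 in the distal colon (−0.40 ± 0.18 SE, adjusted p = 0.46). Id3 was 163.4 and 338.4 against 361.0 and 941.8 in the distal colon (−1.31 ± 0.55 SE, adjusted p = 0.43). Distal Id1 and Id3 were thus lower in both GA3M2 libraries, but the controls of Id3 spread over more than the gap. All other member values in both GA3M2 comparisons lay between −0.50 and 0.52. Without the first distal GWTM2 library, the female one, distal Id3 was −1.997. Without the first proximal GA3M2 library Id1 was 0.71 and Id2 was 1.08. Fibroblast markers summed to 38.4 to 49.1 against 147 to 572 in the proximal table (6 of 8 listed, with Col1a1, Col3a1 and Dcn at 0 in the second GWTM2 library, Col1a2 in the first and Pdgfra in the first GA3M2 library), and macrophage markers to 91.4 to 98.1 against 478 to 729 (5 of 6 listed, C1qb and Lyz2 at 0 in both GWTM2 libraries). In the distal table they summed to 15.3 to 16.3 against 43.1 to 53.8 (2 of 8 listed) and to 42.6 to 101 against 485 to 540 (4 of 6 listed). Their part in the member values was not tested.

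**Figure D3:**
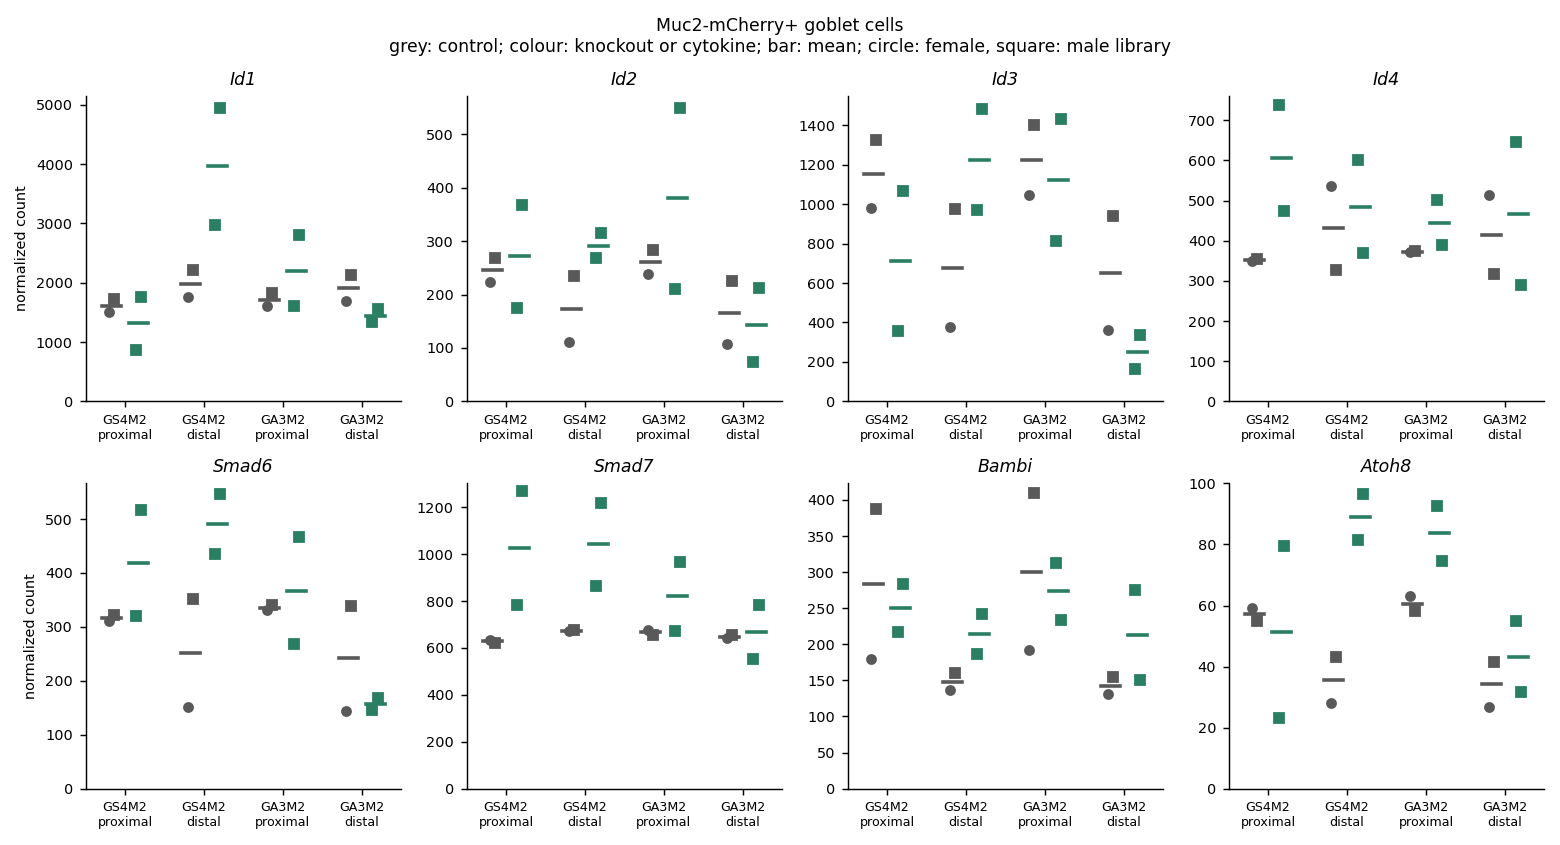
Normalized counts of the 8 members with a row in Muc2-mCherry goblet cells, 1 point per library (n = 2 per group, circles female, squares male, bars means), knockouts in colour beside GWTM2 controls in grey. In distal GS4M2 cells the mean of each member was above its control, and in the other 3 comparisons most groups overlapped.

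No member was called by limma or edgeR for a difference between GS4M2 and GA3M2 cells, against 0.555% of all genes in proximal and 0.933% in distal cells. In the distal colon 3 members passed an unadjusted p under 0.05 and in the proximal colon 0, against 14.4% and 24.6% of all genes. Distal Id3 was higher in GS4M2 than in GA3M2 cells by 2.28 (95% interval 0.97 to 3.59, adjusted p = 0.11), Smad6 by 1.57 (0.69 to 2.45, adjusted p = 0.10) and Id1 by 1.35 (0.55 to 2.16, adjusted p = 0.12). Muc2 was 14151 and 11164 RPM in distal GS4M2 and 931.6 and 752.0 in distal GA3M2 libraries. Whether the sorted cells differed in kind, and the part of this in the members, was not tested. The change under knockout was not called as different between segments for any member in GS4M2 cells (0.0154% of all genes called) or GA3M2 cells (0.00771% of genes), and edgeR called none. At an unadjusted p under 0.05, 3 members passed in GS4M2 and 0 in GA3M2 cells, against 4.90% and 2.13% of all genes. Proximal and distal GWTM2 cells differed in 1.68% of genes and in 0 of the 8 members. There Bambi, at 0.87 (0.02 to 1.72, adjusted p = 0.38), was the single member at an unadjusted p under 0.05, against 12.8% of all genes.

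In organoids no member was called at 12 h of either cytokine. limma, edgeR and DESeq2 each called 0 of 8 members under IL-1 and under IL-17A. None passed an unadjusted p under 0.05, against 4.38% of all genes under IL-1 and 5.14% under IL-17A. Every treated group overlapped its controls for each member, and of all genes only 9.53% and 10.9% did not overlap. Of all genes 0.0542% (7 of 12913) and 0.0385% (5 of 12977) were called. With the replicate number as a block 557 and 1002 genes were called, and 0 members. Log2 fold changes ran from −0.51 (Smad6) to 0.22 (Bambi) under IL-1 and from −0.43 (Smad6) to 0.32 (Id3) under IL-17A. Id1 was 1067, 500.6 and 655.0 normalized counts in controls and 1050, 629.1 and 631.9 with IL-1 (0.08, 95% interval −0.68 to 0.85). It was 1169, 846.1 and 629.9 with IL-17A against 1121, 524.5 and 685.8 in the controls of that table (0.21, 95% interval −0.57 to 0.99). The first library of each group was the highest for Id1.

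At 72 h of IL-1, Id1 and Smad7 were higher than in the controls, 2 of 8 members tested. Of all genes 38.4% (5006 of 13023) were called. Control libraries 1 and 4 at 72 h held the same reads as 12 h controls, so these changes cannot be told apart from culture time. Id1 had 474.5, 585.0 and 628.4 normalized counts in controls and 1300, 2240 and 1733 with IL-1 (1.62 ± 0.22 SE, adjusted p = 0.0032). Every treated library lay well above every control. Smad7, the inhibitory Smad gene, had 282.1, 201.0 and 219.6 against 364.8, 609.8 and 753.6 (1.25 ± 0.29 SE, adjusted p = 0.014). Again the groups did not overlap, as for 54.7% of all genes, with the first treated library nearest to the controls. Id3 had 103.8, 81.0 and 103.5 against 93.9, 337.8 and 289.6 (1.13 ± 0.47 SE, adjusted p = 0.092 by limma and 0.012 by DESeq2). Id2 had 142.8, 182.0 and 202.7 against 177.0, 413.5 and 269.8 (0.63 ± 0.33 SE, adjusted p = 0.16). For both genes the first IL-1 library lay among the controls. Id4 had 61.2, 70.5 and 61.1 against 8.43, 37.9 and 66.9 (−1.16 ± 0.68 SE, adjusted p = 0.21), and Atoh8 32.8, 20.0 and 18.7 against 4.82, 18.9 and 3.29 (−1.60 ± 0.67 SE, adjusted p = 0.092). Smad6 (0.40) and Bambi (0.30) had adjusted p of 0.50 and 0.63. Msx1 had at most 3.61 normalized counts in that table and was not tested.

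The IL-1 result at 72 h moved with single libraries. Without the first IL-1 library 4 members were called, with Id3 at 1.70 (adjusted p = 0.0088) and Id2 at 0.94 (adjusted p = 0.042) added. Without the second, Atoh8 was added (−2.27, adjusted p = 0.020). Without the second control Smad7 was not called (1.14, adjusted p = 0.052). Nor was Smad7 called with the replicate number as a block (0.98, adjusted p = 0.12). Among male libraries alone, which leaves 1 control and was chosen after seeing the data, Id1 was 1.66 (adjusted p = 0.053) and Smad7 0.89 (adjusted p = 0.31), so 0 were called. Epithelial markers (6 of 6) summed to 97410 to 115700 in controls and 183800 to 193900 with IL-1, and their part was not tested.

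At 72 h of IL-17A limma and edgeR called 0 of 8 members, against 10.8% of all genes (1408 of 13073), while 3 members passed an unadjusted p under 0.05, against 38.5% of all genes, and DESeq2 called the same 3, Id1, Id2 and Smad7, among 3847 genes. Id1 had 473.6, 581.6 and 627.1 normalized counts in controls and 1270, 708.5 and 1754 with IL-17A (1.06 ± 0.33 SE, adjusted p = 0.071). Id2 had 142.5, 180.9 and 202.3 against 225.1, 370.7 and 321.3 (0.78 ± 0.27 SE, adjusted p = 0.085). Smad7 had 281.5, 199.9 and 219.2 against 388.6, 345.3 and 773.5 (1.02 ± 0.34 SE, adjusted p = 0.079). For all 3 the treated libraries lay above every control, and 45.3% of all genes did not overlap. The controls were those of the IL-1 comparison at 72 h, so these changes too cannot be told apart from culture time. Id4 had 61.1, 70.1 and 60.9 against 4.48, 37.6 and 41.6 (−1.64 ± 0.79 SE, adjusted p = 0.17) and also did not overlap. Id3 was 0.86 (adjusted p = 0.20), Smad6 0.58, Bambi −0.08 and Atoh8 −1.34. Without the second IL-17A library Id1 (1.42), Smad7 (1.24) and Atoh8 (−2.02) were called, with adjusted p of 0.0049, 0.027 and 0.044. Epithelial markers (6 of 6) summed to 97220 to 115400 in controls and 140200 to 209000 with IL-17A, and the 1 of 3 pericyte markers listed to 16.1 to 46.9 and 70.6 to 138.3, and their part was not tested.

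**Figure D4:**
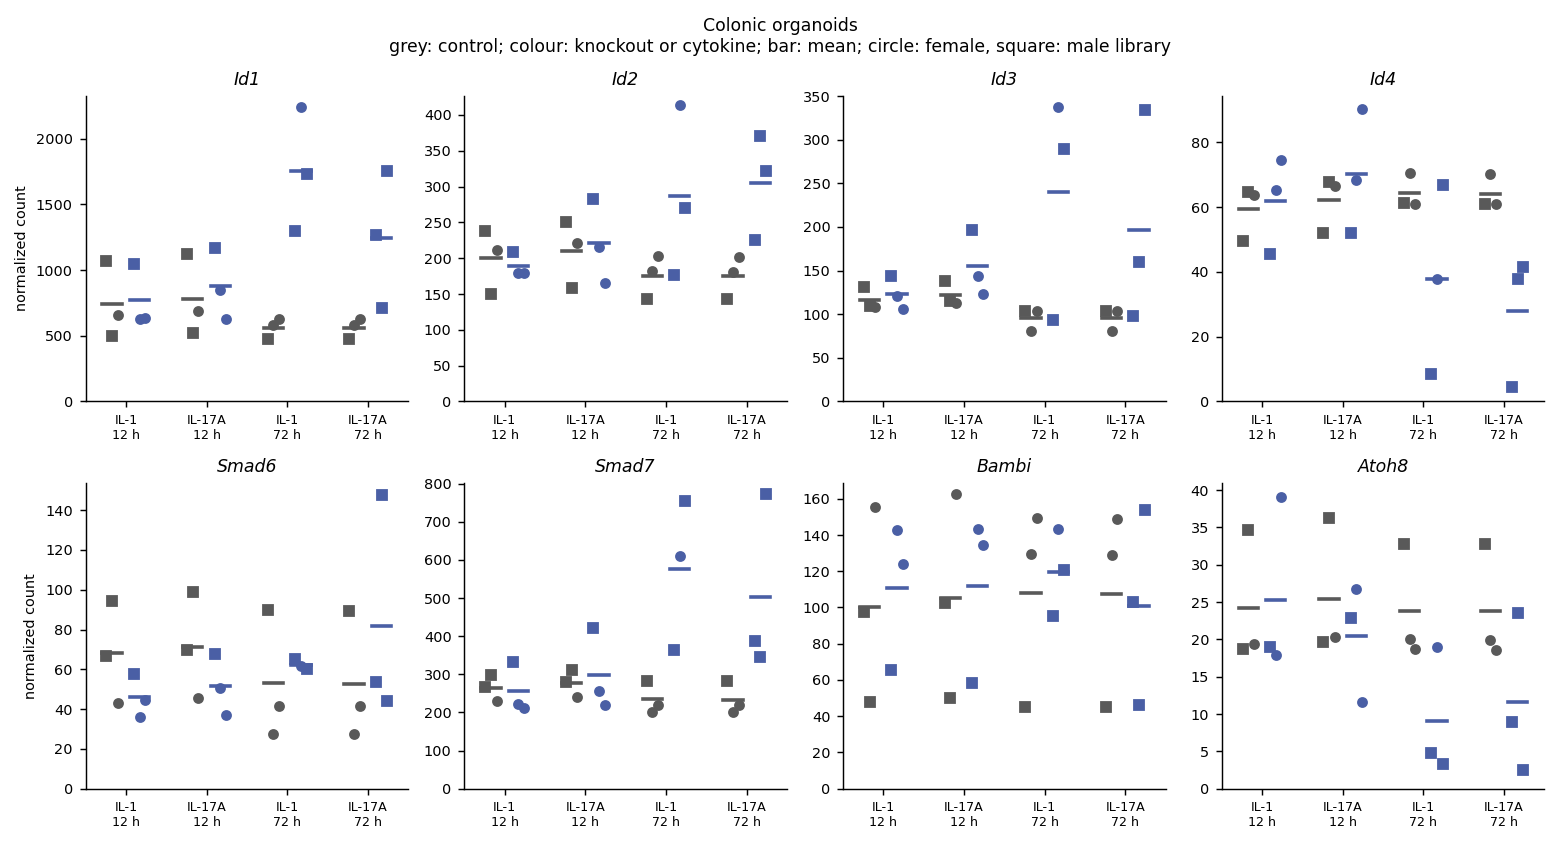
Normalized counts of the 8 members tested in colonic organoids, 1 point per library (n = 3 per group, circles female, squares male, bars means), cytokine in colour beside untreated organoids in grey. At 12 h every treated group overlapped its controls, and at 72 h Id1 and Smad7 lay above the controls in all 6 treated libraries. Of all genes 9.53% (IL-1) and 10.9% (IL-17A) did not overlap at 12 h, and 54.7% and 45.3% at 72 h.

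Times and cytokines were compared directly over the 18 organoid libraries. The IL-1 change of Id1 was larger at 72 h than at 12 h by 1.54 (SE 0.49, adjusted p = 0.0496 by limma), the only call among 8 members, with 13.6% of all genes called. That call was lost with TMM scaling (1.52, adjusted p = 0.051) and without the 2 control libraries that both times share (2.07, adjusted p = 0.23). Smad7 stood at 1.32 (95% interval 0.33 to 2.32, adjusted p = 0.065). The shared control libraries were entered at both times, so differences between times cannot be told apart from culture time. Under IL-17A no member's change was called as different between times by limma or edgeR (1.51% of all genes called), and Id1 stood at 0.86 (−0.18 to 1.90). There 0 members passed an unadjusted p under 0.05, against 29.2% of all genes. IL-1 and IL-17A organoids differed in 0% of genes at 12 h and 0.0154% at 72 h, and in 0 members at either time by limma, edgeR or the unadjusted p. This fit was unpaired, although some same-numbered libraries were close across the cytokines. At 72 h the chi-square per degree of freedom was 8.198 for the first, 102.05 for the second and 17.036 for the third libraries. Pairs within the 72 h cytokine groups differed by 70.049 to 211.38. At 12 h the first libraries differed by 4.60. The spread within groups enters the error of an unpaired fit, so it cannot decide whether the cytokines differed.

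**Figure D5:**
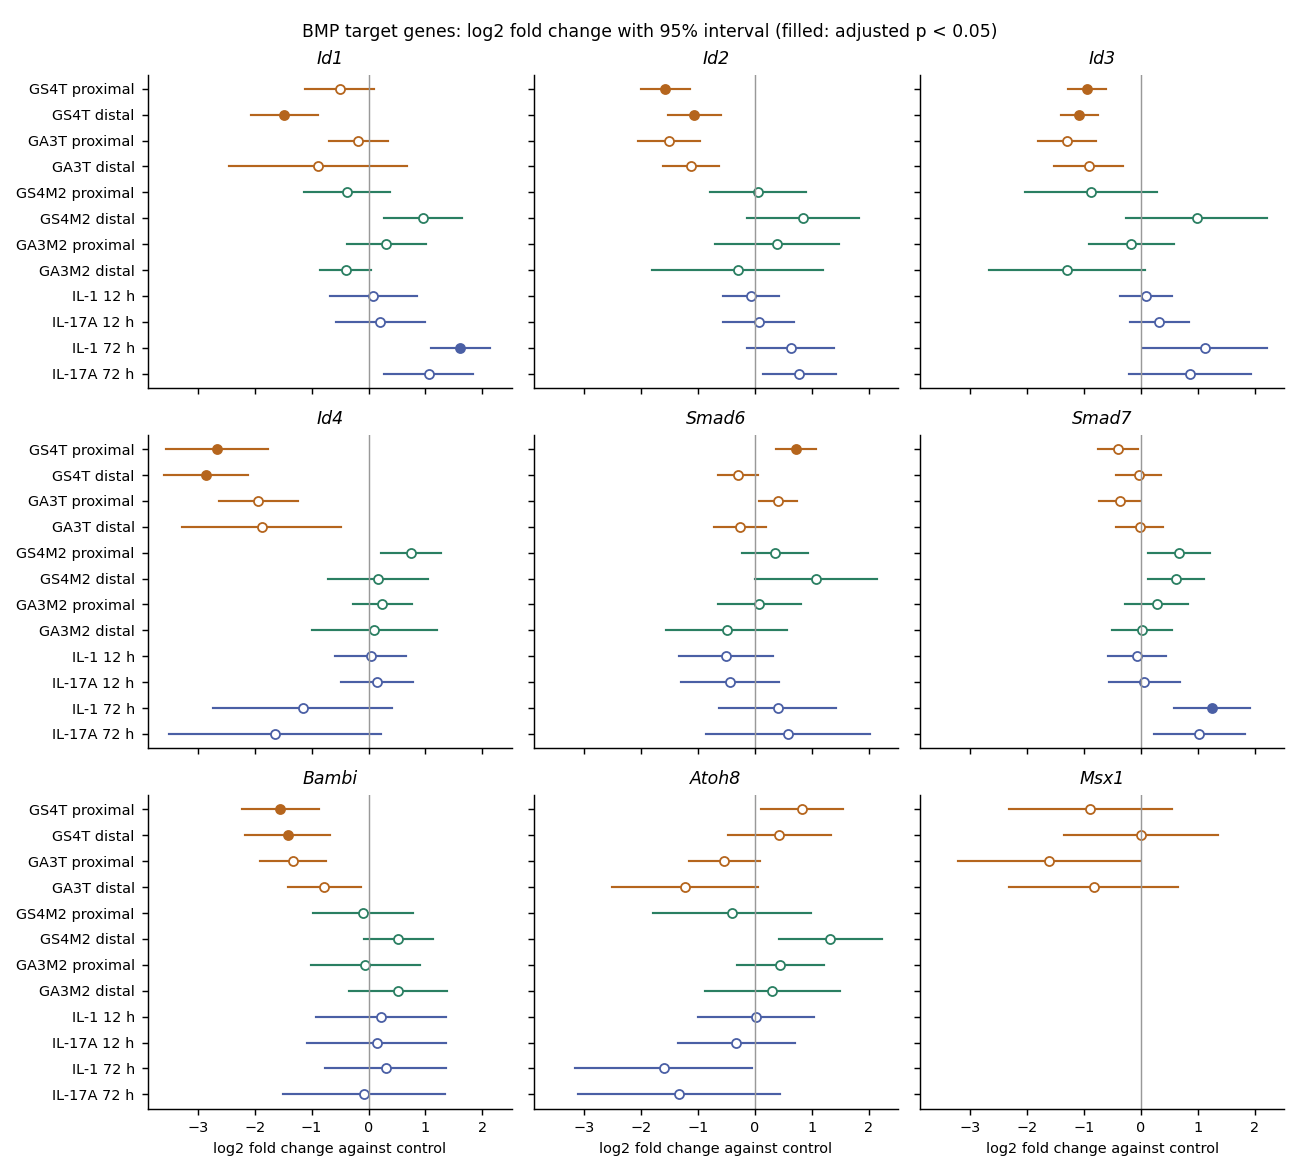
Log2 fold change of each tested member against control (points) with its 95% interval (lines) in the 12 comparisons, filled where the adjusted p was under 0.05, in stromal cells (brown), goblet cells (green) and organoids (blue). Id2, Id3, Id4 and Bambi lay left of 0 in all 4 stromal comparisons, and Id1 and Smad7 lay right of 0 at 72 h of both cytokines.

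Other genes of the pathway are given by 7 lists. Their counts stand beside the share of all genes called. That share was 15.6% in proximal and 23.2% in distal GS4T, 0.358% in proximal GA3T and 0.325% in proximal GS4M2 cells. At 72 h it was 38.4% with IL-1 and 10.8% with IL-17A. Among 11 BMP ligands, 4 rose and 1 fell of 8 tested in proximal GS4T cells, 2 rose and 2 fell of 8 in distal ones, and 3 rose of 9 in proximal GA3T cells. In proximal GA3T cells these were Bmp7 (533 ± 61.1 to 5489 ± 1220 normalized counts, log2 fold change 3.35), Bmp3 (2.77) and Bmp5 (1.50), with adjusted p of 0.035, 0.0496 and 0.049 (SD, n = 2 each). Bmp6 fell in distal GS4T cells, from 6105 ± 505 to 2016 ± 106 (−1.60, adjusted p = 0.0014). In goblet cells Bmp8b rose in proximal GS4M2 cells (2.73, adjusted p = 0.039) as 1 of 6 ligands tested. In organoids at 72 h Bmp2, a ligand of the pathway, rose with IL-1 from 621 ± 86.2 to 4052 ± 882 (SD, n = 3 each, log2 fold change 2.69, adjusted p = 0.0020). It also rose with IL-17A (2.22, adjusted p = 0.042), while Bmp7 fell with IL-1 (−2.46, adjusted p = 0.0061). As for the members, changes at 72 h cannot be told apart from culture time.

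Of 14 receptors and Smads, 5 fell and 0 rose in proximal GS4T cells, and 5 fell and 1 rose in distal ones, Smad4 among those that fell. Rgmb, a BMP co-receptor gene, fell in proximal GS4T cells (4140 ± 265 to 857 ± 170 normalized counts, −2.28, adjusted p = 0.0052). With IL-1 at 72 h 2 of 11 rose (Acvrl1, Bmpr2) and 1 fell (Rgmb, −1.46, adjusted p = 0.0042), against 38.4% of all genes called. With IL-17A Acvrl1, a type I receptor gene, rose (1.72, adjusted p = 0.037) as 1 of 11, against 10.8% of all genes. Of 11 secreted antagonists tested, 3 rose and 2 fell in proximal and 4 rose and 3 fell in distal GS4T cells. Grem1 (2.04, adjusted p = 0.0013) and Chrdl2 (3.75, adjusted p = 0.0011) rose in the distal colon. Of 5 intracellular regulators, 1 rose and 2 fell in proximal and 1 fell in distal GS4T cells, Skil rose in proximal GS4M2 cells (1.58, adjusted p = 0.039) and with IL-17A at 72 h (1.30, adjusted p = 0.041), and 3 rose with IL-1 at 72 h, Tob1 among them (0.84, adjusted p = 0.0046).

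Of 8 tested members of a list of other BMP-responsive transcription factors, 2 rose and 1 fell in proximal and 2 rose and 3 fell in distal GS4T cells. Of 6 TGF-β-responsive genes, 3 rose and 0 fell in each GS4T segment. Ltbp2, a matrix protein gene, rose by 4.19 in the proximal colon (adjusted p = 0.0041), and Col7a1, an anchoring collagen gene, by 3.40 there (adjusted p = 0.0061) and 4.86 in the distal colon (adjusted p = 0.00061). With IL-1 at 72 h 1 of 4 rose. The 3 E proteins that Id proteins bind were called only in the IL-1 72 h comparison of the 12, where 2, Tcf3 and Tcf12, fell. In all other comparisons and lists limma called no gene.

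As genes most like Id1 in pattern, the 5 with the highest Pearson correlation with it over 12 libraries are given for each sorted cell type, with no test. The libraries share genotypes and segments, and whether any share animals is not stated. In stroma, over 10100 genes, these were Smad9 (r = 0.897), Abcg4 (0.895), Cers4 (0.890), Slc35c2 (0.889) and Igkv3-5 (0.885). In goblet cells, over 9450 genes, they were Pycrl (0.858), 2210016F16Rik (0.852), Amdhd2 (0.849), Pheta1 (0.847) and Dhrs4 (0.837). Of the members with a mean of at least 10 RPM, Id3 was nearest to Id1 in both, at 0.682 and 0.626.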

How the data were processed

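Values were DESeq2-normalized counts (a signal scaled by size factors), deposited by the authors in 12 tables, each normalized by itself, with reads aligned to mm10. The submitters' processing notes name STAR 2.5.3 and DESeq2 1.28.1, and the read counter, annotation and strand setting are not given in the sources used here. Each value was a whole multiple of 1 read's worth (0.752 to 1.26, 100% whole within 0.1 reads), so reads were recovered, at 14222902 to 23686940 per library. Unnamed rows, in 2 tables (20.9% to 28.2% of reads), were left out, and 0 columns of samples went unused. Columns of the authors' own fold changes and p-values were not used.

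Each table was tested with limma 3.58.1 in R 4.3.3 on log2(value + 1), for genes with a mean of at least 10, with Benjamini-Hochberg adjustment over all genes tested. Fold changes of low genes are understated on this scale. Differences between segments, knockouts, times and cytokines were fitted with limma on recovered reads of 1 cell type, scaled by median of ratios. edgeR 4.0.16 and DESeq2 1.42.0 on recovered reads were alternatives, and scripts were tested on simulated data. All 10 members are named, with the targeted genes, Gli1 and Muc2, up to 4 called genes per comparison from the pathway lists, and the 5 genes most like Id1. One gene that this rule names is not reported here. The members and lists were chosen with earlier results of these data known. Same-numbered libraries were not treated as pairs, since the labels do not say what a number marks. Each cytokine group also shares only 2 numbers with its controls, while the IL-1 and IL-17A groups share all their numbers at each time. At 12 h same-numbered libraries correlated at 0.619 to 0.637, so the unpaired 12 h fits may miss changes that a paired fit would call. Gene positions come from GENCODE M21 (GRCm38).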

Additional observations from a re-analysis of the deposited data

Results flagged for a closer look

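The change of Id1 under IL-1 was called as different between times, and this call was not kept under every alternative. It was larger at 72 h than at 12 h by 1.54 on the log2 scale (limma over 18 organoid libraries, adjusted p = 0.0496), where Id1 was 1.62 above control at 72 h and 0.08 above control at 12 h. All 3 treated libraries lay above every control at 72 h, and the groups overlapped at 12 h. edgeR gave 1.62 (adjusted p = 0.046). The adjusted p was just under the threshold, and TMM scaling gave 1.52 (adjusted p = 0.051). Of the 3 control libraries at each time, 2 held the same reads and were entered at both times. The difference thus cannot be told apart from culture time. Without those control libraries it was 2.07.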

How the results depend on the processing

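With 2 libraries per sorted group, the counts of called members turned on single libraries. Leaving out 1 library at a time gave 0 to 5 called members in proximal and 2 to 5 in distal GS4T cells, 0 to 1 in proximal and 0 to 5 in distal GA3T cells, 0 to 2 in distal GS4M2 and in proximal GA3M2 cells, 0 to 1 in distal GA3M2 cells, 1 to 4 with IL-1 at 72 h and 0 to 3 with IL-17A at 72 h; where 1 library of a group was left, it was assumed to vary like the others. The share of all genes called is not given here for these fits, nor for the minimum fold, sex and male-only settings below. Those member counts therefore stand without it. A minimum log2 fold change of 1 left 3 called members in proximal GS4T cells. An unadjusted p with that minimum gave 3 in proximal GS4T, 5 in proximal GA3T, 2 in distal GA3T and 2 in distal GS4M2 cells, 4 with IL-1 and 2 with IL-17A at 72 h. DESeq2 gave 4 in proximal and 3 in distal GA3T cells, 1 in distal GS4M2 cells, 3 with IL-1 at 72 h and 3 with IL-17A at 72 h. Over all genes it called 1614, 1138, 249, 5601 and 3847 in these comparisons. The replicate block gave 2 (Id2, Id3) in proximal GA3T cells and 1 with IL-1 at 72 h, where Smad7 was 0.98 (adjusted p = 0.12), and changed no other count of called members; same-numbered libraries correlated at −0.057 to 0.302 in sorted cells, 0.619 to 0.637 at 12 h and −0.186 to 0.200 at 72 h. Over all genes the block moved the calls from 55 to 257 in proximal and 0 to 62 in distal GA3T, 43 to 479 in proximal GS4M2, 12 to 952 in proximal and 0 to 4 in distal GA3M2 cells, 7 to 557 with IL-1 and 5 to 1002 with IL-17A at 12 h, and 5006 to 1544 with IL-1 and 1408 to 4 with IL-17A at 72 h. Of the alternatives chosen after seeing the data, the sex of the library as a covariate gave 2 in proximal and 5 in distal GA3T cells and 1 in distal GA3M2 cells, ended the Smad6 call in proximal GS4T cells and added Id2 with IL-1 at 72 h (0.86, adjusted p = 0.043), male libraries alone gave 0 with IL-1 at 72 h, and leaving out the 2 control libraries shared by both times gave 0 members whose cytokine change differed between times, as did TMM scaling. Values that changed sign, counted where called or at least 1 SE from 0, changed with 1 library left out: Atoh8 in distal GS4T cells ran from −0.14 to 1.01, Id1 from −1.86 to 0.071 in distal GA3T, −0.90 to 0.13 in proximal GS4M2 and −0.092 to 0.71 in proximal GA3M2 cells, and Smad6 from −1.11 to 0.11 in distal GA3M2 cells. The cause of these changes was not tested. Of the other fold changes and differences 1888 kept their direction and side of the threshold, 54 came to pass it and 29 no longer did. No pair of libraries within a group agreed within sampling noise, so that averaging was not run. Averaging the near-identical organoid pairs, chosen after seeing the data, left the called members at 0, 0, 2 and 0 for IL-1 and IL-17A at 12 h and at 72 h.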
